A study of Mus musculus with 24 samples.

Results

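The genes described here encode the enzymes that take up, activate and oxidize fatty acids, with their electron acceptor and the PPAR receptors that control many of them. Of 34 genes named for these roles (acyl-CoA synthetases, mitochondrial and peroxisomal β-oxidation, electron transfer flavoprotein, PPARs and fatty acid transporters, with the carnitine shuttle left out), 33 had a row under that symbol among the 24091 genes of the read count table, and 32 passed the filter on low counts. Cd36l2 had no row under that symbol, and its current name is not among the listed members. Ppara, the receptor that drives fatty acid oxidation in liver, had 0 to 5 counts in every library and was not tested.

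Lin-Sca-1+c-Kit+ cells (LSKs), the bone marrow fraction that holds hematopoietic stem cells and early progenitors, were sorted from mice on the B6 background and profiled by bulk RNA-seq in 4 groups of 6 mice, with 3 females and 3 males in each. WT mice carried both miR-142 alleles (miR-142+/+) and miR-142 KO mice lacked both (miR-142-/-), without BCR-ABL. CP CML mice were miR-142+/+ BCR-ABL and BC CML mice were miR-142-/- BCR-ABL, and both carried SCLtTA/BCR-ABL, a transgene expressed from the SCL promoter, which is active in stem and progenitor cells, once tetracycline is withdrawn. CML LSKs were collected 2 weeks after induction, so both CML groups share the transgene, its promoter and the induction. Ages were not in the labels.

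Fatty acids enter a cell in part through fatty acid transport proteins and are trapped by acyl-CoA synthetases, which join them to coenzyme A. Acyl-CoA dehydrogenases, hydratases, hydroxyacyl-CoA dehydrogenases and thiolases then shorten the chain in repeated rounds, in mitochondria for most chain lengths and in peroxisomes for very long ones. The electrons taken by the acyl-CoA dehydrogenases pass through electron transfer flavoprotein (ETF) and its oxidoreductase to ubiquinone in the respiratory chain. In the marrow, fatty acid oxidation is known for its part in hematopoietic stem cell maintenance.

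The Mir142 row, the targeted locus on chromosome 11, had 94 to 127 counts in WT and 68 to 153 in CP CML libraries, and no count in any of the 12 miR-142-/- libraries, where a count of 0 allows up to 3 counts (counting error only). Its 2 mature strands, in RefSeq on GRCm38.p6, lie on the plus strand at chr11:87756867-87756887 (5p) and chr11:87756903-87756925 (3p). They are shown because their seeds (bases 2 to 8, in capitals) define the sites searched for in the members' mRNAs.
mmu-miR-142a-5p: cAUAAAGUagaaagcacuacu
mmu-miR-142a-3p: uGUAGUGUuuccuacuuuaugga

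In the longest annotated protein-coding 3′ UTR of each gene (GENCODE M21, GRCm38), 7 of 32 tested members held a 7-base match to either seed, or 21.9%, beside 20.6% of the 12609 tested genes with a UTR. The 5p site ACTTTAT was in 5 members (15.8% of tested genes) and the 3p site ACACTAC in 2 (6.92% of tested genes). The members' UTRs were shorter, with a median of 699.5 bases against 1166 over tested genes. A match is a description of sequence, and binding was not measured. All 11 sites are printed 5′ to 3′ on the mRNA strand with 8 bases on each side, the site in capitals.
Acsl4 3p, chrX:142320261-142320267 minus strand: atgtattaACACTACtcaaagca
Ppard 3p, chr17:28300289-28300295 plus strand: ccaaagaaACACTACgctctctc
Acad9 5p, chr3:36091386-36091392 plus strand: ccacctagACTTTATgttcttca
Acad9 5p, chr3:36091768-36091774 plus strand: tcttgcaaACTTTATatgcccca
Acad11 5p, chr9:104126914-104126920 plus strand: tagcattcACTTTATacacatga
Acadsb 5p, chr7:131444588-131444594 plus strand: aaatagtcACTTTATattcctac
Acadsb 5p, chr7:131444667-131444673 plus strand: tattcaatACTTTATagattcag
Acadsb 5p, chr7:131445067-131445073 plus strand: gttattggACTTTATcctaaata
Etfdh 5p, chr3:79603810-79603816 minus strand: taaataaaACTTTATaaataaac
Acsl6 5p, chr11:54361373-54361379 plus strand: ccaagtacACTTTATttttatta
Acsl6 5p, chr11:54363446-54363452 plus strand: acttcccaACTTTATctcagggg
The second Acsl6 site lies beyond the end of the gene in the deposited table, which is position 54361539.

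Libraries held 16267965 (CP CML replicate 1) to 24687077 counts and no 2 were identical. Levels below are CPM, the counts scaled to one library size with TMM factors, which ranged from 0.944 to 1.06. Dividing by the gene length in the deposited table gives RPKM, the scale used to compare genes. These lengths were not checked against the transcripts present in LSKs, so ranks of genes and the size of ratios between genes depend on them. Log2 fold changes are given with their standard errors (SE), and "rose" or "fell" means an adjusted p below 0.05 in edgeR's quasi-likelihood test, with Benjamini-Hochberg adjustment over all 13520 tested genes. These are bulk samples, in which fewer cells of a type and less RNA per cell cannot be told apart.

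Most of the pathway was expressed in LSKs of all groups. Of the 33 members, 31 had a mean of at least 1 CPM in each group, and the coefficient of variation over the 6 mice of a group had a median of 6.29% (1.98% to 17.9%) among them. In WT LSKs the highest level per length was that of Etfb, the β subunit of ETF, at 128 ± 13.6 RPKM (SD, n = 6), followed by Acsl5 at 93.7 ± 6.33 RPKM, Acadl at 71.9 ± 3.32 RPKM, Etfa at 52.7 ± 4.08 RPKM and Hadha at 48.1 ± 2.92 RPKM. The last pair differed by more than the SD of either, though their ranges of mean ± SD overlapped. Acadvl, Eci1 and Acads (26.1, 25.9 and 25.5 RPKM) lay within their SDs of one another. At the low end were Ehhadh at 2.71 RPKM, Acad10 at 2.40 RPKM and Acsl6 at 0.194 RPKM. Ppara, at 0.00373 RPKM, was far below Ppard, the PPAR found in most tissues, at 4.95 RPKM.

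**Figure D1:**
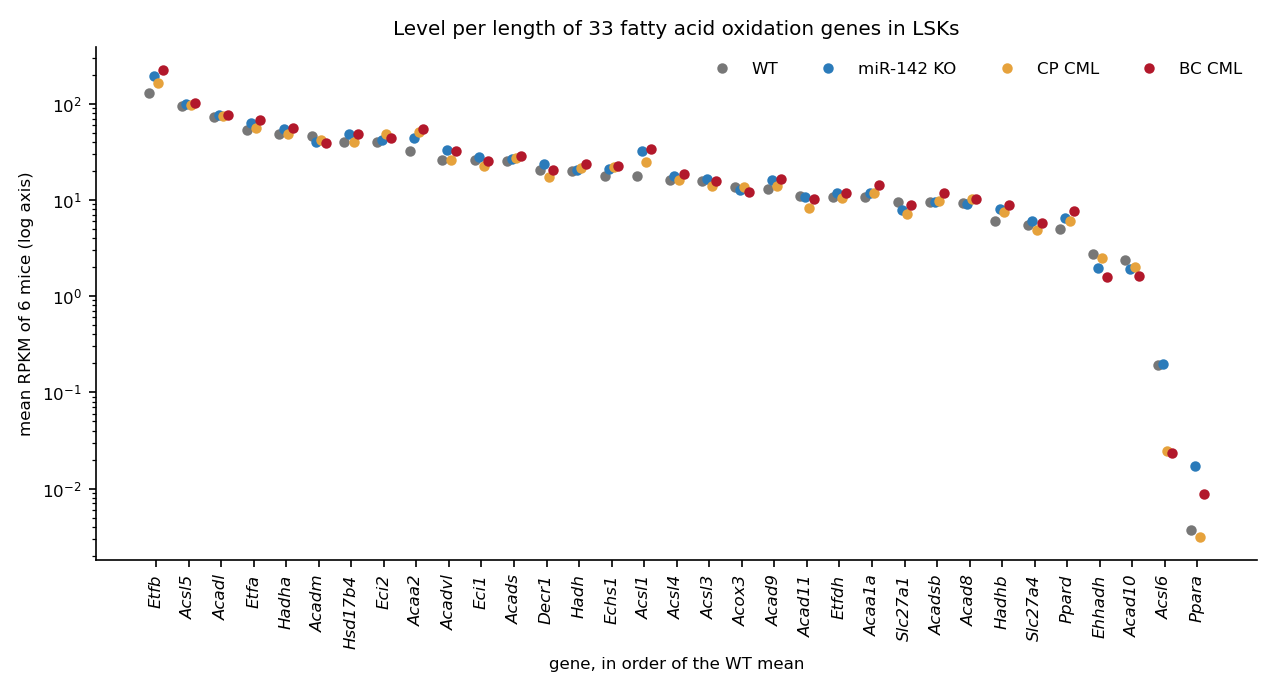
Mean level per length (RPKM, log axis) of the 33 members in each of the 4 groups of 6 mice, ordered by the WT mean. Etfb was highest and Ppara lowest in every group, and the 2 BCR-ABL groups separated from the other groups at Acsl6.

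Comparing BC CML with CP CML LSKs asks how loss of miR-142 goes with the pathway in BCR-ABL cells. Of the 32 tested members, 17 rose and 2 fell (59.4%), where 38.0% of all tested genes passed the threshold (20.4% higher, 17.6% lower). The median log2 fold change was 0.19 over the members and 0.01 over all tested genes, and 26 members were above 0. The changes were small: no member reached a 2-fold change, and the called ones ran from -0.64 to 0.47 on the log2 scale. In 13 members the 6 BC CML mice all lay above the 6 CP CML mice and in 1, Ehhadh, all below. That is 43.8% of members, beside 20.7% of all tested genes (11.4% above, 9.29% below). With females only 4 rose and 1 fell (15.6%, beside 12.5% of all genes tested in that fit). With males only 14 rose and 1 fell (46.9%, beside 28.0%). With upper quartile factors 14 rose and 4 fell, while the share of higher calls over all genes went from 53.7% to 42.4%.

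Comparing miR-142 KO with WT LSKs asks the same without BCR-ABL. Here 13 members rose and 4 fell (53.1%), where 36.3% of all tested genes passed (19.9% higher, 16.4% lower). The median log2 fold change was 0.12 over the members and 0.01 over all tested genes. In 8 members the KO mice all lay above and in 1, Acadm, all below the WT mice. That is 28.1% of members, beside 14.5% of all tested genes (8.31% above, 6.15% below). With males only 8 rose and 1 fell (28.1%, beside 21.5% of all genes tested in that fit), and with females only 11 rose and 1 fell (37.5%, beside 17.0%). With upper quartile factors 12 rose and 4 fell, while the share of higher calls over all genes went from 54.7% to 42.0%. The 2 comparisons share no library. The 11 members that rose in both were Acsl1, Acadvl, Acad9, Hadha, Hadhb, Decr1, Hsd17b4, Etfa, Etfb, Etfdh and Ppard. They are 64.7% of those that rose in BC CML and 84.6% of those that rose in KO, where the shares over all tested genes were 56.6% and 58.1%. Acadm and Ehhadh fell in both, and Slc27a1 rose in BC CML and fell in KO.

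**Figure D2:**
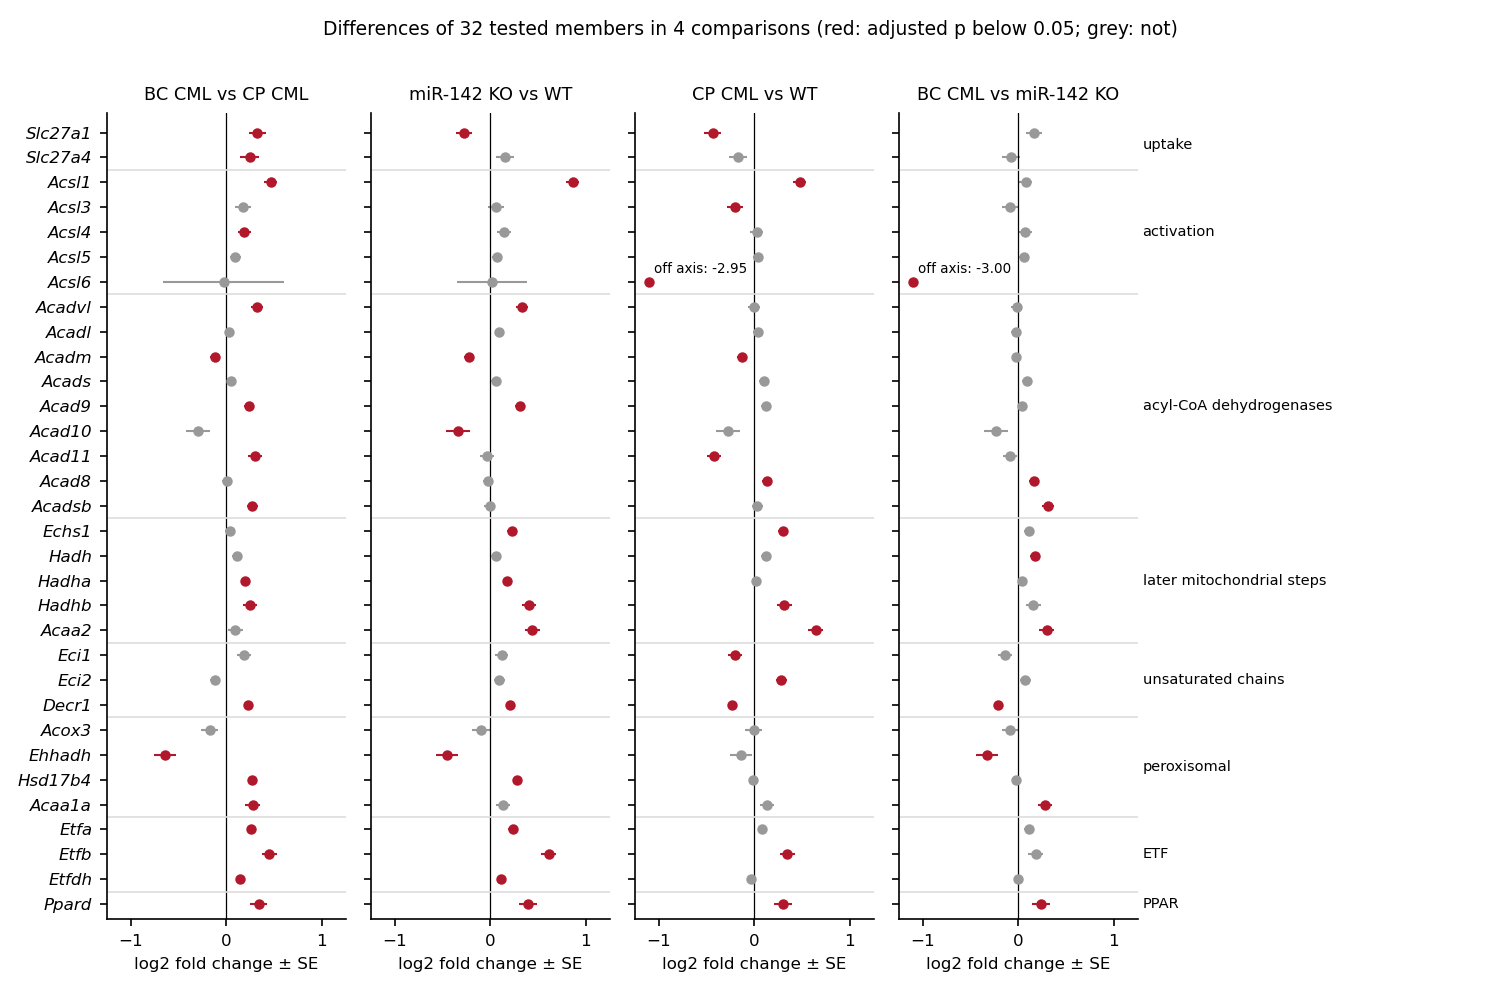
Log2 fold change ± SE of the 32 tested members in 4 comparisons of 6 against 6 mice, grouped by role, with members past an adjusted p of 0.05 in red. In BC CML vs CP CML 17 members lie past the threshold on the right and 2 on the left, in miR-142 KO vs WT 13 and 4, and Acsl6 lies off the axis in the 2 comparisons that differ by BCR-ABL.

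CP CML vs WT and BC CML vs miR-142 KO show the members with and without BCR-ABL at the same miR-142 genotype, and each shares its groups with the comparisons above. In CP CML vs WT 8 members rose and 7 fell (46.9%), where 45.4% of all tested genes passed (22.5% higher, 22.9% lower). Of the members 3 lay wholly above and 5 wholly below the WT mice (25.0%), as did 11.9% and 9.87% of all tested genes (21.8%). In BC CML vs miR-142 KO 6 rose and 3 fell (28.1%), where 39.6% of all tested genes passed (20.3% higher, 19.3% lower). Here 2 lay wholly above and 2 wholly below (12.5%), as did 6.09% and 4.48% of all tested genes (10.6%). The medians over the members were 0.03 and 0.05. With females only, 6 rose and 3 fell in CP CML vs WT (28.1%, beside 22.5% of all genes tested in that fit), and 0 rose and 3 fell in BC CML vs miR-142 KO (9.38%, beside 6.91%). With males only 4 rose and 6 fell (31.2%, beside 27.6%), and 2 rose and 1 fell (9.38%, beside 29.3%).

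Among the fatty acid transport proteins, Slc27a1 (FATP1), which couples uptake to activation, lies at chr8:71568927-71586708 on the plus strand of mm10. Its lowest, median and highest levels were 27.9, 30.3 and 32.3 CPM in WT and 17.7, 25.6 and 29.4 CPM in miR-142 KO LSKs. In CML LSKs they were 21.0, 21.7 and 24.1 CPM in CP CML against 24.2, 27.4 and 31.3 CPM in BC CML LSKs. Every BC CML mouse was above every CP CML mouse, by a narrow margin, whereas the KO mice lay mostly below the WT mice with overlap. Slc27a1 rose in BC CML vs CP CML (log2 fold change 0.32 ± 0.09, adjusted p = 0.00535). It fell in KO vs WT (-0.28 ± 0.09, adjusted p = 0.0158) and in CP CML vs WT (-0.44 ± 0.09, adjusted p = 0.000384), with CP CML wholly below WT. The difference between the 2 effects of miR-142 loss was 0.60 ± 0.12 (adjusted p = 0.00741). Slc27a4 (FATP4) rose in BC CML vs CP CML (0.24 ± 0.10, adjusted p = 0.0461), a call lost in 19 of 24 fits that each left out 1 mouse.

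Of the 5 long-chain acyl-CoA synthetases, Acsl1 and Acsl4 rose in BC CML vs CP CML (40.0%, beside 38.0% of all tested genes) and Acsl1 rose in KO vs WT (1 of 5, beside 36.3%). Acsl1, whose product feeds oxidation in heart and fat and lipid synthesis in liver, lies at chr8:46471037-46536051 on the plus strand. It was measured at 65.2, 71.4 and 80.2 CPM (lowest, median and highest) in WT and 116, 131 and 139 CPM in miR-142 KO. With BCR-ABL it was at 80.2, 100.1 and 111 CPM in CP CML against 123, 138 and 148 CPM in BC CML. Both miR-142-/- groups lay wholly above their miR-142+/+ counterparts, and CP CML lay between, touching the WT range. The log2 fold change was 0.86 ± 0.07 in KO vs WT (adjusted p = 3.54e-09), the highest of any member there, 0.47 ± 0.07 in BC CML vs CP CML (adjusted p = 2.11e-05) and 0.47 ± 0.07 in CP CML vs WT (adjusted p = 2.06e-05). BC CML and KO did not pass the test (0.08 ± 0.07, adjusted p = 0.411), and the miR-142 effect was smaller with BCR-ABL by 0.40 (difference -0.40 ± 0.10, adjusted p = 0.0261). Slc27a1 and Acsl1 were the only members with such a difference of effects past the threshold in edgeR's quasi-likelihood test (2 of 32). Of all tested genes 3.99% passed (1.91% higher, 2.08% lower), and DESeq2 called 5 members.

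The make-up of the synthetases differed as well. Acsl5, which had the highest level per length of the 5, made up 65.3% ± 1.21 (SD, n = 6) of their summed RPKM in WT, 59.7% ± 1.81 in KO, with 63.8% ± 3.02 in CP CML against 60.2% ± 1.07 in BC CML LSKs, and Acsl5 itself passed no test. The Acsl1 share was 12.3% ± 0.616 in WT, 19.5% ± 1.56 in KO, with 16.3% ± 1.58 in CP CML against 19.8% ± 0.841 in BC CML LSKs. It was higher in all 6 KO than in all 6 WT mice and in all 6 BC CML than in all 6 CP CML mice (two-sided exact permutation test, p = 0.00216 for each, the smallest that 924 splits can give; adjusted over 8 ratio tests, 0.00346). Acsl1 alone already separated these groups, so the share is not independent of it. Acsl4, which prefers arachidonic acid, rose in BC CML vs CP CML (0.19 ± 0.07, adjusted p = 0.0377) with overlapping values, and the call was lost in 19 of 24 fits that left out 1 mouse. Acsl3 fell in CP CML vs WT (-0.20 ± 0.08, adjusted p = 0.0421), a call lost in 16 of those fits.

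Acsl6, known for its expression in brain and red cell precursors, was the member with the largest change in any comparison, and its level was low. It had 9 to 31 counts per library in WT, 6 to 33 in KO, with 1 to 3 in CP CML against 0 to 3 in BC CML. Its lowest, median and highest levels were 0.388, 0.830 and 1.27 CPM in WT and 0.265, 0.693 and 1.46 CPM in KO. The BCR-ABL mice had 0.0413, 0.108 and 0.182 CPM in CP CML against 0, 0.127 and 0.151 CPM in BC CML LSKs. Every mouse with BCR-ABL was below every mouse without it. Acsl6 fell in CP CML vs WT (log2 fold change -2.95 ± 0.48, adjusted p = 4.4e-05) and in BC CML vs KO (-3.0 ± 0.48, adjusted p = 5.78e-05). The ratio of the summed counts, adjusted for library size, was 0.122 (95% exact interval 0.0633 to 0.218, counting error only) and 0.119 (0.0617 to 0.212). Erythroid markers fell in the same comparisons: 6 of the 6 listed ones with a row in each (2 more had none under the listed symbol). Of all tested genes, 22.9% fell in CP CML vs WT and 19.3% in BC CML vs KO. Without overlap, 4 of the 6 erythroid genes lay lower in CP CML vs WT and 0 in BC CML vs KO. Their summed level ran from 60.9 to 130.0 CPM in WT, 18.0 to 159 CPM in KO, with 21.4 to 50.1 CPM in CP CML against 15.2 to 24.3 CPM in BC CML LSKs, with none at 0 throughout a group. Of 6 megakaryocyte markers, 5 fell and 0 rose in BC CML vs KO, and 2 fell and 1 rose in CP CML vs WT. The part of either list in the Acsl6 result was not tested.

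Of the 9 acyl-CoA dehydrogenases, 4 rose and 1 fell in BC CML vs CP CML (55.6%, beside 38.0% of all tested genes), and 2 rose and 2 fell in KO vs WT (44.4%, beside 36.3%). Acadvl, which starts the oxidation of very long chains at the inner mitochondrial membrane, was at 52.3, 56.5 and 60.4 CPM in WT and 69.0, 71.2 and 74.3 CPM in KO. Among CML mice it was at 47.1, 57.1 and 63.6 CPM in CP CML against 66.1, 69.2 and 77.2 CPM in BC CML LSKs (lowest, median, highest). The miR-142-/- mice lay wholly above the miR-142+/+ mice with and without BCR-ABL. The log2 fold change was 0.32 ± 0.06 in BC CML vs CP CML (adjusted p = 0.000273) and 0.34 ± 0.06 in KO vs WT (adjusted p = 0.000182). Without strand information some of its reads cannot be told from those of Dvl2, whose exons share 976 bases with it on the opposite strand.

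Acad9, which is both an acyl-CoA dehydrogenase and an assembly factor of respiratory complex I, ranged from 54.5 to 69.4 CPM (median 59.4) in WT and from 72.5 to 79.0 CPM (median 73.7) in KO LSKs. Its range was 61.3 to 69.7 CPM (median 65.8) in CP CML against 72.6 to 81.7 CPM (median 77.6) in BC CML LSKs. It too showed no overlap by miR-142 genotype, with 0.23 ± 0.05 in BC CML vs CP CML (adjusted p = 0.000925) and 0.31 ± 0.05 in KO vs WT (adjusted p = 5.23e-05). In GENCODE M21, Acad9 shares 559 exonic bases with Gm43079 on the same strand. No deposited gene overlaps Acad9, and whether the counting annotation held Gm43079 is not known.

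Acad11 and Acadsb passed the test in BC CML vs CP CML and not in KO vs WT, and the difference between these effects did not pass it for either. Acad11, which acts on very long and hydroxylated chains, was at 35.6, 36.2 and 39.7 CPM in WT and 30.4, 36.3 and 41.0 CPM in KO. Its CML values were 23, 28.5 and 30.9 CPM in CP CML against 31.6, 34.5 and 35.3 CPM in BC CML LSKs. The CP CML mice were the low group, wholly below both WT and BC CML. Acad11 rose in BC CML vs CP CML (0.30 ± 0.07, adjusted p = 0.00192), fell in CP CML vs WT (-0.42 ± 0.07, adjusted p = 6.73e-05) and was at -0.03 ± 0.07 in KO vs WT (adjusted p = 0.746), with a difference of effects of 0.33 ± 0.10 (adjusted p = 0.0608).

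Acadsb, which oxidizes short branched chains from isoleucine, was at 38.1, 39.4 and 43.7 CPM in WT and 33.6, 40.8 and 43.9 CPM in KO. With BCR-ABL it was at 38.2, 41.2 and 42.7 CPM in CP CML against 43.5, 50.9 and 52.7 CPM in BC CML LSKs. Here BC CML was the high group, wholly above CP CML and overlapping KO and WT at its lower end. Acadsb rose in BC CML vs CP CML (0.27 ± 0.06, adjusted p = 0.000758) and in BC CML vs KO (0.31 ± 0.06, adjusted p = 0.000352), with a difference of effects of 0.28 ± 0.08 (adjusted p = 0.0571).

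Acadm, the medium-chain enzyme, went the other way. Its levels were 90.9, 95.2 and 98.3 CPM in WT and 75.0, 82.2 and 86.2 CPM in KO. In the CML groups the levels were 82.7, 88.1 and 89.2 CPM in CP CML against 74.9, 77.9 and 92.5 CPM in BC CML LSKs. WT was the high group, and 1 BC CML mouse at 92.5 CPM lay above the CP CML range. Acadm fell in KO vs WT (-0.23 ± 0.05, adjusted p = 0.000579), in CP CML vs WT (-0.13 ± 0.05, adjusted p = 0.028) and in BC CML vs CP CML (-0.12 ± 0.05, adjusted p = 0.0458). The calls were lost in 17 of 24 fits without 1 mouse in CP CML vs WT and in 6 (CP CML replicates 4, 5 and 6 and BC CML replicates 1, 2 and 6) in BC CML vs CP CML. Acadl, the long-chain enzyme, and Acads, the short-chain enzyme, passed no test, with Acadl at 139, 149, 143 and 146 CPM on average in WT, KO, CP CML and BC CML LSKs. Acad10 fell in KO vs WT (-0.34 ± 0.13, adjusted p = 0.0384), a call lost in 10 of 24 fits. Acad8, an isobutyryl-CoA dehydrogenase of valine breakdown, rose with BCR-ABL in CP CML vs WT (0.13 ± 0.05, adjusted p = 0.0392, lost in 5 of 24 fits) and BC CML vs KO (0.17 ± 0.05, adjusted p = 0.0136, lost in 2).

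**Figure D3:**
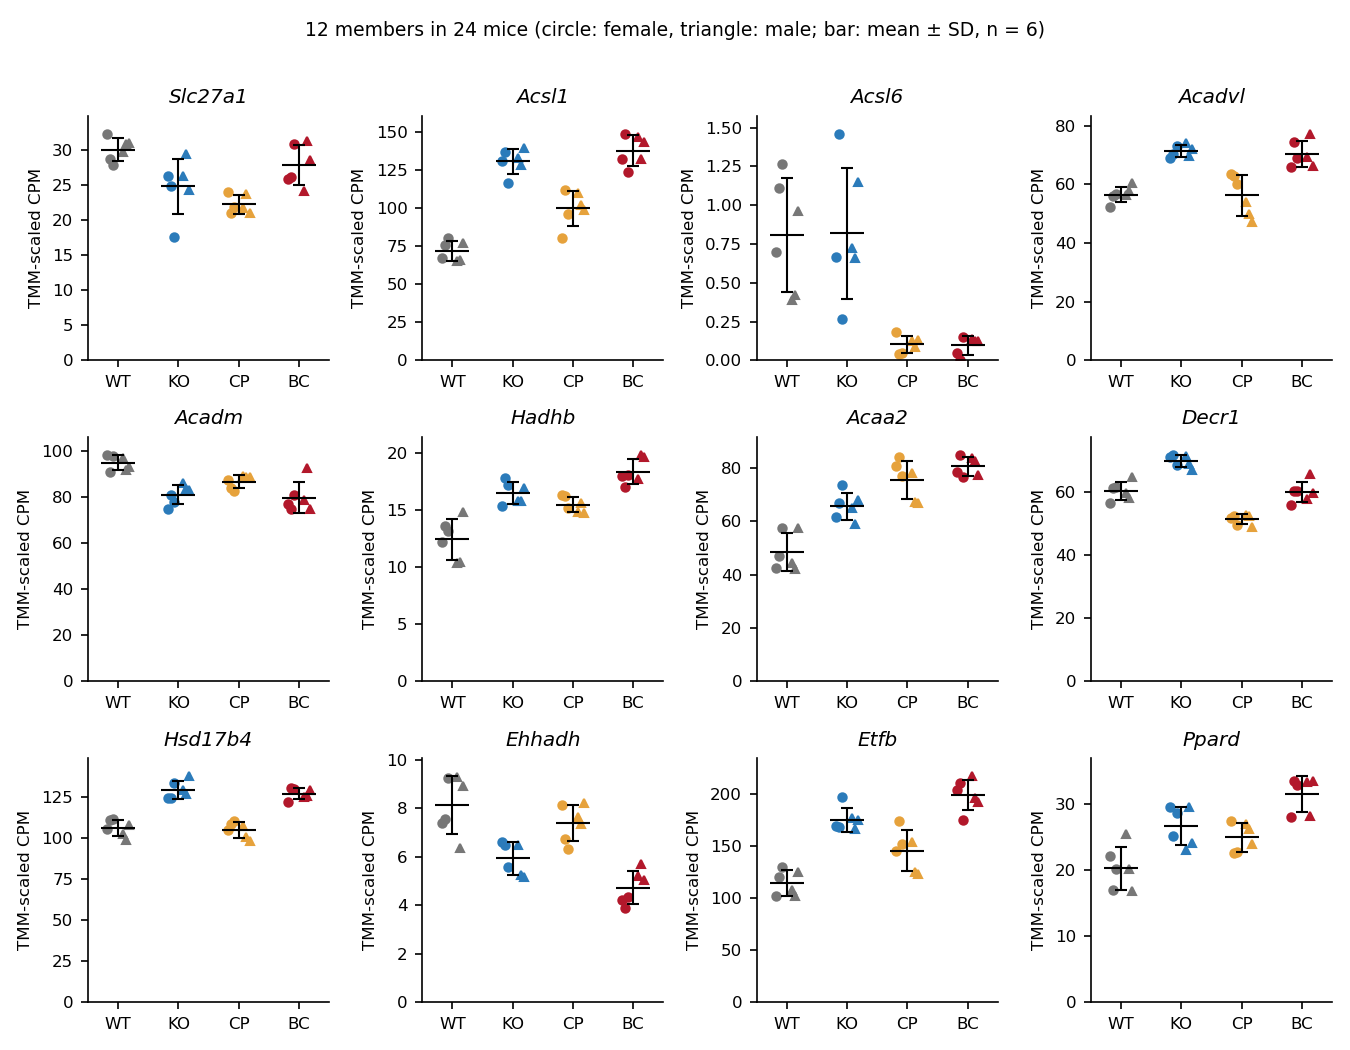
TMM-scaled CPM of 12 members in each of the 24 mice, by group, with the mean ± SD of 6 mice. The miR-142-/- groups (KO, BC) lie above their miR-142+/+ counterparts without overlap for Acsl1, Acadvl, Hadhb, Decr1, Hsd17b4 and Etfb, Ehhadh lies lower in both, and Acsl6 is low in both BCR-ABL groups.

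In the steps after dehydrogenation, both subunits of the mitochondrial trifunctional protein rose with miR-142 loss. Hadha (α subunit, enoyl-CoA hydratase and hydroxyacyl-CoA dehydrogenase) and Hadhb (β subunit, thiolase) lie head to head on chromosome 5 (chr5:30118304-30154980, minus strand, and chr5:30155253-30184593, plus strand), with starts 273 bases apart. Hadha was at 208, 225 and 242 CPM in WT and 240.3, 251 and 257 CPM in KO. In the CML groups the levels were 209, 227 and 238 CPM in CP CML against 251, 257 and 268 CPM in BC CML. Hadhb was at 10.4, 12.7 and 14.9 CPM in WT and 15.4, 16.4 and 17.9 CPM in KO. The BCR-ABL mice had 14.8, 15.4 and 16.3 CPM in CP CML against 17.1, 18.0 and 19.8 CPM in BC CML LSKs. Hadha ranges met between KO and WT, and otherwise the miR-142-/- mice lay wholly above.

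Hadha rose by 0.20 ± 0.04 in BC CML vs CP CML (adjusted p = 0.000628) and 0.17 ± 0.04 in KO vs WT (adjusted p = 0.00226), and Hadhb by 0.25 ± 0.08 (adjusted p = 0.0131) and 0.40 ± 0.08 (adjusted p = 0.000231). Hadhb also rose in CP CML vs WT (0.32 ± 0.08, adjusted p = 0.00205), where Hadha did not (0.01 ± 0.04, adjusted p = 0.825). Although the proteins pair, the ratio of Hadha to Hadhb level per length was 8.04 ± 0.783 in WT, 6.77 ± 0.314 in KO, with 6.45 ± 0.398 in CP CML against 6.24 ± 0.447 in BC CML LSKs. The ratio was lower in KO than in WT (two-sided exact permutation p = 0.00649, adjusted 0.00866). It did not differ past the threshold between BC CML and CP CML (exact permutation p = 0.403, adjusted 0.403). Hadhb alone already separated KO from WT, so the ratio is not independent of it.

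Acaa2, the mitochondrial thiolase for shorter chains, was at 42.3, 45.6 and 57.6 CPM in WT and 59.1, 65.8 and 73.6 CPM in KO. Among CML mice it was at 66.8, 77.5 and 84.1 CPM in CP CML against 76.5, 80.7 and 84.8 CPM in BC CML LSKs. Each of the other groups lay wholly above WT, and BC CML wholly above KO. Acaa2 rose in KO vs WT (0.44 ± 0.08, adjusted p = 0.000134), in CP CML vs WT (0.64 ± 0.08, adjusted p = 1.67e-06) and in BC CML vs KO (0.30 ± 0.08, adjusted p = 0.00466), and its difference in BC CML vs CP CML was 0.09 ± 0.08 (adjusted p = 0.366). Echs1, the short-chain hydratase, rose in KO vs WT (0.22 ± 0.05, adjusted p = 0.0015) and in CP CML vs WT (0.30 ± 0.05, adjusted p = 7.85e-05), with CP CML wholly above WT. Hadh, the hydroxyacyl-CoA dehydrogenase for shorter chains, rose in BC CML vs KO (0.17 ± 0.05, adjusted p = 0.0137), and that call was lost without miR-142 KO replicate 5 (adjusted p = 0.0557).

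Unsaturated chains need Eci1 and Eci2, which shift double bonds, and Decr1, which reduces dienoyl-CoA. Decr1 was at 56.5, 60.5 and 64.6 CPM in WT and 66.8, 69.9 and 71.6 CPM in KO. Its CML values were 49.0, 51.9 and 52.6 CPM in CP CML against 55.7, 60.0 and 65.6 CPM in BC CML LSKs. The groups separated in all 4 comparisons, with KO wholly above WT and BC CML, and CP CML wholly below both. Decr1 rose with miR-142 loss (0.23 ± 0.04, adjusted p = 0.000145, in BC CML vs CP CML and 0.21 ± 0.04, adjusted p = 0.000305, in KO vs WT) and fell with BCR-ABL by similar amounts (-0.23 ± 0.04, adjusted p = 9.12e-05, in CP CML vs WT and -0.22 ± 0.04, adjusted p = 0.000304, in BC CML vs KO). Of the isomerases, Eci2 rose (0.28 ± 0.06, adjusted p = 0.000301) and Eci1 fell (-0.20 ± 0.07, adjusted p = 0.0257, lost without WT replicate 6 or CP CML replicates 2, 5 or 6) in CP CML vs WT. Neither passed the test in BC CML vs CP CML, where Eci1 was at 0.18 ± 0.07 (adjusted p = 0.0519) and Eci2 at -0.12 ± 0.06 (adjusted p = 0.104).

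In peroxisomes the middle steps are run by 2 bifunctional enzymes, and their genes moved in opposite directions. Hsd17b4, the D-bifunctional protein for very long and branched chains, was at 98.8, 107 and 112 CPM in WT and 125, 128 and 138 CPM in KO. The BCR-ABL mice had 98.2, 106 and 111 CPM in CP CML against 122, 128 and 131 CPM in BC CML. Ehhadh, the L-bifunctional protein and a well known PPARα target in liver (chr16:21761285-21787834, minus strand), was at 6.37, 8.25 and 9.30 CPM in WT and 5.17, 6.03 and 6.63 CPM in KO. With BCR-ABL it was at 6.33, 7.49 and 8.24 CPM in CP CML against 3.89, 4.69 and 5.70 CPM in BC CML LSKs. Hsd17b4 was wholly higher in both miR-142-/- groups, and Ehhadh was wholly below CP CML in the BC CML mice and, with slight overlap, below WT in the KO mice.

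Hsd17b4 rose by 0.27 ± 0.04 in BC CML vs CP CML (adjusted p = 7.7e-06), the smallest adjusted p of any member in that comparison, and by 0.28 ± 0.04 in KO vs WT (adjusted p = 4.61e-06). Ehhadh fell by 0.64 ± 0.12 on the log2 scale in BC CML vs CP CML (adjusted p = 0.000146), by 0.45 ± 0.11 in KO vs WT (adjusted p = 0.00338) and by 0.32 ± 0.12 in BC CML vs KO (adjusted p = 0.0298, lost without miR-142 KO replicate 1, 2 or 4 or BC CML replicate 1 or 2). The ratio of Ehhadh to Hsd17b4 level per length was 0.0676 ± 0.00912 in WT and 0.0407 ± 0.00586 in KO, with and 0.0626 ± 0.00865 in CP CML against 0.0330 ± 0.00508 in BC CML LSKs. This ratio is read as a description only, because the pair was set side by side for its opposite changes. Its permutation tests in KO vs WT and BC CML vs CP CML are not read as results. They do count among the 8 ratio tests, so the adjusted p-values of the other ratios depend on them.

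Acaa1a, the peroxisomal thiolase, rose in BC CML vs CP CML (0.28 ± 0.07, adjusted p = 0.00513) with overlapping values and in BC CML vs KO (0.28 ± 0.07, adjusted p = 0.00505) without overlap. Its near-identical paralog Acaa1b had 0 to 4 counts in every library. How reads that match both genes were counted is not known, so some may be missing from Acaa1a. Acox3, a branched-chain acyl-CoA oxidase, passed no test, and its group means ran from 54.8 CPM in BC CML to 62.2 CPM in WT LSKs.

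All 3 genes of the ETF route rose with miR-142 loss in both comparisons, where 20.4% (BC CML vs CP CML) and 19.9% (KO vs WT) of all tested genes rose. Etfb (chr7:43444072-43457800, plus strand) was at 102, 114 and 130.2 CPM in WT and 167, 172 and 197 CPM in KO. In the CML groups the levels were 123, 149 and 175 CPM in CP CML against 176, 199.9 and 217 CPM in BC CML LSKs. Etfa, its α partner, was at 68.7, 77.0 and 84.8 CPM in WT and 83.8, 88.5 and 103 CPM in KO. The BCR-ABL mice had 77.2, 80.3 and 86.0 CPM in CP CML against 94.7, 97.1 and 101 CPM in BC CML LSKs. Etfb was wholly higher in both miR-142-/- groups, by a narrow margin in BC CML, and Etfa was wholly higher in BC CML and overlapped in KO.

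Etfb rose by 0.45 ± 0.08 in BC CML vs CP CML (adjusted p = 9.46e-05), by 0.61 ± 0.08 in KO vs WT (adjusted p = 2.25e-06) and by 0.34 ± 0.08 in CP CML vs WT (adjusted p = 0.00124). Etfa rose by 0.26 ± 0.05 (adjusted p = 0.000221) and 0.24 ± 0.05 (adjusted p = 0.000543) in the first 2 of these. Etfdh, the ubiquinone oxidoreductase, rose by 0.15 ± 0.04 (adjusted p = 0.0124) and 0.11 ± 0.04 (adjusted p = 0.0482), calls lost in 3 (CP CML replicates 5 and 6 and BC CML replicate 4) and 7 of 24 fits that left out 1 mouse.

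The ETF subunits form a 1-to-1 dimer, and the Etfb to Etfa ratio of levels per length was 2.42 ± 0.159 in WT, 3.14 ± 0.104 in KO, with 2.90 ± 0.300 in CP CML against 3.31 ± 0.182 in BC CML LSKs. It was higher in KO than in WT without overlap (two-sided exact permutation p = 0.00216, adjusted 0.00346). The ratio was also higher in BC CML than in CP CML, with overlap (exact permutation p = 0.0195, adjusted 0.0223). Etfb alone already separated these groups, so the ratio is not independent of it. In GENCODE M21, Etfb shares 617 exonic bases with Gm45233 on the same strand. Gm45233 is not among the deposited genes that overlap Etfb. Whether the counting annotation held it, and so whether it affected the reads of Etfb, is not known.

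**Figure D4:**
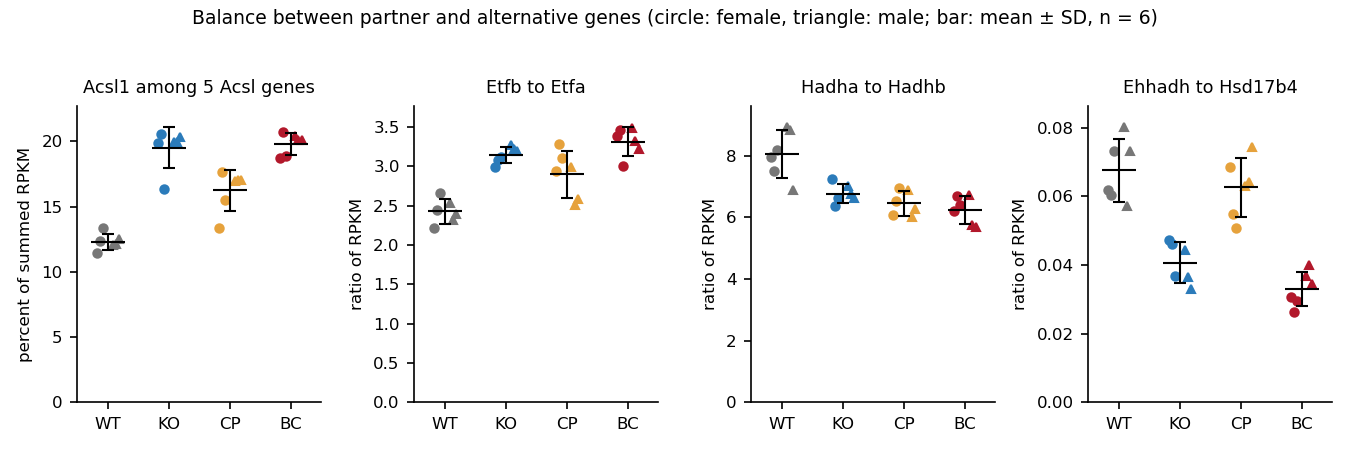
Acsl1 share of the summed level per length of the 5 Acsl genes (percent) and ratios of levels per length for Etfb to Etfa, Hadha to Hadhb and Ehhadh to Hsd17b4 in each of 24 mice, with the mean ± SD of 6. The Acsl1 share is higher in every KO than every WT mouse and in every BC than every CP mouse, while the KO and CP ranges overlap (16.4% to 20.6% and 13.4% to 17.6%).

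Ppard, which encodes PPARδ, a fatty acid-activated receptor that turns on oxidation genes in muscle, was at 16.8, 20.1 and 25.5 CPM in WT and 23.1, 26.9 and 29.6 CPM in KO. Among CML mice it was at 22.5, 25.0 and 27.3 CPM in CP CML against 28.0, 33.1 and 33.4 CPM in BC CML LSKs. BC CML lay wholly above CP CML and WT, with overlap between the others. Ppard rose in all 4 comparisons: by 0.34 ± 0.09 in BC CML vs CP CML (adjusted p = 0.00589), 0.40 ± 0.09 in KO vs WT (adjusted p = 0.00187), 0.30 ± 0.09 in CP CML vs WT (adjusted p = 0.0124) and 0.24 ± 0.09 in BC CML vs KO (adjusted p = 0.0426), the last lost in 15 of 24 fits that left out 1 mouse. In RefSeq promoter windows (GRCm38.p6, 250 bases before to 50 after the start), the PPAR response element (2 copies of the hexamer AGGTCA with 1 base between), read on both strands, was in 0 of 29 members with a window, in 5 of 10447 tested genes with one and in 13 of all 32851 promoters. The single hexamer was in 4 members (Acadm, Acadvl, Acsl6 and Echs1), or 13.8%, beside 15.0% of tested genes with a window and 16.3% of all promoter windows.

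The members with a miR-142 seed site can be set against these changes. In BC CML vs CP CML, 6 of the 7 (85.7%) rose, all but Acsl6, as did 11 of the 25 without a site (44.0%). Over all tested genes with a UTR the shares were 26.1% of 2603 with a site and 20.03% of 10006 without. In KO vs WT, Acad9, Etfdh and Ppard rose (3 of 7, or 42.9%), as did 10 of 25 without a site (40.0%), beside 23.6% and 20.1% of all tested genes. None of the 7 fell in either comparison (16.8% and 16.5% of all tested genes with a site did). In BC CML vs CP CML the call for Acsl4 was lost in 19 of 24 fits without 1 mouse and that for Etfdh in 3. In KO vs WT the Etfdh call was lost in 7. Acsl1, Etfb, Hsd17b4, Acadvl, Hadha and Hadhb, which rose in both comparisons, held no site in the UTR searched.

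Neighbouring parts of fatty acid metabolism were read from lists of genes that exclude the members. The counts stand beside 38.0% of all tested genes called in BC CML vs CP CML and 36.3% in KO vs WT. Of 8 carnitine shuttle genes, which move acyl groups into mitochondria, 3 rose and 3 fell in BC CML vs CP CML (75.0%), and 3 rose and 1 fell in KO vs WT (4 of 8). The largest change was that of Cpt1c, the brain form of carnitine palmitoyltransferase 1, named after its values were seen, at 14 to 31 counts per library in WT, 4 to 13 in KO, with 12 to 26 in CP CML against 1 to 10 in BC CML. It fell in both comparisons, by 1.51 ± 0.34 (adjusted p = 0.00107) and 1.54 ± 0.32 (adjusted p = 0.000636) on the log2 scale, without overlap. Crat, a carnitine acetyltransferase, rose in both (0.62 ± 0.08, adjusted p = 1.17e-06, and 0.52 ± 0.08, adjusted p = 1.29e-05), whereas Cpt1a, the rate-limiting entry step, fell in BC CML vs CP CML (-0.44 ± 0.08, adjusted p = 0.000299) and was at 0.01 ± 0.08 in KO vs WT (adjusted p = 0.941).

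Of 11 tested acyl-CoA thioesterases and binding proteins, 7 rose and 4 fell in BC CML vs CP CML (all 11) and 4 rose and 4 fell in KO vs WT (72.7%). Acbd5, a peroxisomal acyl-CoA binding protein, rose in both (0.49 ± 0.05, adjusted p = 1.15e-07, and 0.25 ± 0.05, adjusted p = 0.00051), as did Acot7, a long-chain thioesterase (0.49 ± 0.06, adjusted p = 9.79e-07, and 0.41 ± 0.06, adjusted p = 9.62e-06). Of 11 tested genes of other uptake and activation routes, 5 fell in BC CML vs CP CML (45.5%), and 6 fell and 2 rose in KO vs WT (72.7%). Among these, Slc27a6, another fatty acid transport protein, fell by 1.33 ± 0.21 on the log2 scale in BC CML vs CP CML (adjusted p = 2.51e-05), and Acss1, a mitochondrial acetyl-CoA synthetase, by 0.66 ± 0.09 (adjusted p = 5.39e-06).

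Of 8 odd-chain and ketone body enzymes, 4 rose in BC CML vs CP CML (4 of 8, beside 38.0% of all tested genes) and 2 in KO vs WT (25.0%, beside 36.3%). Oxct1, which starts ketone body use (0.37 ± 0.06, adjusted p = 4.16e-05), and Mut, the methylmalonyl-CoA mutase of odd-chain breakdown (0.30 ± 0.05, adjusted p = 9.11e-05), rose in BC CML vs CP CML. Of 13 tested peroxisomal and accessory oxidation genes 2 rose and 1 fell in BC CML vs CP CML (23.1%), and 2 rose and 4 fell in KO vs WT (46.2%). Phyh, which starts phytanic acid breakdown (0.32 ± 0.07, adjusted p = 0.00134), and Echdc2 (1.29 ± 0.33, adjusted p = 0.0037) rose in the former. Of 9 lipolysis genes 2 rose and 1 fell in BC CML vs CP CML (33.3%), and 3 rose and 1 fell in KO vs WT (44.4%), shares near those of all tested genes. The 2 that rose in BC CML were Abhd5, the activator of adipose triglyceride lipase (0.57 ± 0.11, adjusted p = 0.000212), and Plin2, a lipid droplet coat protein (0.33 ± 0.11, adjusted p = 0.0197).

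Of the 3 genes that set malonyl-CoA, the inhibitor of fatty acid entry, Acacb, the carboxylase at the mitochondrial surface, rose in BC CML vs CP CML (0.57 ± 0.15, adjusted p = 0.00489), Mlycd was at -0.16 ± 0.07 (adjusted p = 0.0928), and 2 of the 3 rose in KO vs WT. Of 13 tested PPAR partners, coregulators and targets 1 rose and 4 fell in BC CML vs CP CML (38.5%, beside 38.0% of all tested genes), and 3 rose and 1 fell in KO vs WT (30.8%, beside 36.3%). Rxrg, an RXR that can pair with PPARs, rose in both (2.49 ± 0.52, adjusted p = 0.000613, and 3.48 ± 0.46, adjusted p = 3.14e-06) from 1 to 5 counts per library in CP CML and 1 to 13 in WT.

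Markers of lineages that an LSK gate could hold moved with the same comparisons, where 38.0% and 36.3% of all tested genes were called. All 10 LSK and stem cell markers were detected, including Kit and Ly6a (Sca-1), and 1 rose and 6 fell in BC CML vs CP CML, and 1 rose and 5 fell in KO vs WT. Neutrophil-primed progenitor markers rose in 4 of 7 and 7 of 7 genes in these comparisons, with summed levels of 1293 to 4907 CPM in WT, 2833 to 7629.8 CPM in KO, with 4548 to 7725 CPM in CP CML against 5916 to 8690.5 CPM in BC CML LSKs. Mast cell or basophil markers rose in 4 of 6 and 5 of 6, with 79.6 to 571 CPM in WT, 225 to 2622 CPM in KO, with 1185 to 2249.6 CPM in CP CML against 3402 to 7318 CPM in BC CML. B cell and plasma cell markers fell in 3 and 2 of 7 tested, from 165 to 747 CPM in CP CML and 68.7 to 958 CPM in WT to 27.8 to 39.1 CPM in BC CML and 27.1 to 40.8 CPM in KO LSKs. None of these 4 lists had a gene at 0 in all mice of a group, and their part in the members' results was not tested.

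Of the other marker lists, mature neutrophil genes rose in 1 and 6 of 8 (2 fell in the first) and erythroid genes fell in 2 and 1 of 6. Megakaryocyte genes fell in 1 of 6 and rose in 5 of 6. Macrophage or monocyte genes rose in 1 and fell in 2 of 7 in KO vs WT, and T or NK cell genes rose in 1 and fell in 1 of 4, then rose in 3 and fell in 1 of 4. Adipocyte markers were at or near 0: Adipoq had 0 to 7, Lep 0 to 1 and Cidec 0 to 2 counts per library. Pdgfrb, listed with them as a stromal gene, had 1209 to 4566 counts and fell in BC CML vs CP CML.

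The difference of the miR-142 effect between males and females was tested in both comparisons. No member passed the threshold in edgeR's quasi-likelihood test, with TMM or with RLE factors, where 0.00% of all tested genes passed in BC CML vs CP CML and 0.00740% in KO vs WT. At an unadjusted p below 0.05 there were 2 members (Acadvl and Slc27a4), or 6.25%, beside 3.82% of all tested genes in BC CML vs CP CML. In KO vs WT there were 0, beside 7.72%. With 3 mice per sex and group, small differences between the sexes were not detectable.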

How the data were processed

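LSKs of 24 mice, 6 in each of 4 groups, were sequenced as paired reads of 101 bases. Per the study's methods and the submitters' processing notes, reads were trimmed (Trimmomatic, FASTP), aligned to mm10 with STAR 2.6.0 and counted per gene with HTSeq 0.11.1. The deposited table holds these raw read counts, which the authors left unnormalized, for 24091 genes. The annotation and strand setting are not given in the sources used here. The methods state 5 mice per group, whereas the series has 6. Groups and sex came from the labels, and replicate numbers only name samples. No per-sample column was left out.

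Counts were tested with edgeR 4.0.16 (R 4.3.3) by a quasi-likelihood fit over all 24 libraries, with TMM factors, filterByExpr (13520 genes kept) and Benjamini-Hochberg adjustment at 0.05. The scripts were tested on simulated counts. Levels are TMM-scaled CPM, or RPKM with the deposited gene length. Group shares and ratios were compared by two-sided exact permutation in Python 3.11.15 with SciPy 1.17.1. Alternatives were the likelihood ratio test, DESeq2 1.42.0, RLE and upper quartile factors, other filters, sex as a covariate, each sex alone, the compared libraries alone, a fold limit, and leaving out each mouse. Totals of 16267965 to 24687077 counts set the precision, and intervals cover counting error only.

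The members, gene lists and tests were chosen with earlier results of these data known. Full values were given for members past the threshold without overlap in BC CML vs CP CML or KO vs WT, or with a log2 fold change of at least 1 in size, and up to 2 genes by smallest p for each other list. One gene that this rule names is not reported here. Cpt1c, Pdgfrb, Adipoq, Lep and Cidec were named after their values were seen. Sites were 7-base seed matches in GENCODE M21 3′ UTRs, and promoters and miRNAs were from RefSeq (GRCm38.p6).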

Additional observations from a re-analysis of the deposited data

Results flagged for a closer look

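In 8 of 132 groups of 6 mice, 1 mouse stood apart from the others of its group by a gap over 0.625 of the group's range, where chance gives about 1 in 20. The high mice were miR-142 KO replicate 6 for Acsl4 (105.0 CPM), BC CML replicate 5 for Acadm (92.5 CPM), CP CML replicate 4 for Echs1 (120.2 CPM), BC CML replicate 2 for Eci1 (33.8 CPM) and for Acaa1a (28.4 CPM), CP CML replicate 2 for Eci2 (85.4 CPM) and miR-142 KO replicate 3 for Etfb (197 CPM), and the low mouse was miR-142 KO replicate 3 for Acox3 (44.4 CPM).

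The miR-142 effect differed with BCR-ABL, by the interaction term of edgeR's quasi-likelihood test, for Slc27a1 (0.60 ± 0.12 on the log2 scale, adjusted p = 0.00741) and for Acsl1 (-0.40 ± 0.10, adjusted p = 0.0261).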

How the results depend on the processing

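No member called in the main fit or in an alternative changed the sign of its log2 fold change between them. The median log2 fold change over the members in CP CML vs WT did change sign with upper quartile factors, from 0.03 to -0.01. Of 62 calls of members over the 4 comparisons and their difference, 62 stayed past the threshold with DESeq2 and with sex as a covariate, 59 with the likelihood ratio test and with RLE factors, 56 with upper quartile factors, 55 with no filter, 29 in females only, 36 in males only and 2 with an absolute log2 fold change of at least 1. For BC CML vs CP CML (17 higher, 2 lower), the number lower was 1 with the likelihood ratio test, with no filter, in females only and in males only, 4 with upper quartile factors and 5 with only the libraries compared, and the number higher was 4 in females only. For miR-142 KO vs WT (13 higher, 4 lower), the number lower was 2 with only the libraries compared and 1 in each sex alone, and 8 were higher in males only. For CP CML vs WT (8 higher, 7 lower), 3 were lower in females only and 4 higher in males only. For BC CML vs miR-142 KO (6 higher, 3 lower), 1 was lower with only the libraries compared and in males only, and 0 and 2 were higher in females only and males only. The difference of the miR-142 effect with and without BCR-ABL (1 higher, 1 lower) gave 3 higher and 2 lower with DESeq2, and 0 and 0 in females only and in males only. With an absolute log2 fold change of at least 1, 0 were higher in any of these, 1 was lower in CP CML vs WT and 1 in BC CML vs miR-142 KO (Acsl6 in both), and 0 were lower in the others. Each sex alone and the libraries compared alone use fewer samples, and for the other alternatives the cause was not tested.

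With each mouse left out in turn, 14 to 17 members were higher and 1 to 4 lower in BC CML vs CP CML, 12 to 14 and 3 to 4 in miR-142 KO vs WT, 7 to 11 and 4 to 7 in CP CML vs WT, 4 to 8 and 2 to 4 in BC CML vs miR-142 KO, and 1 to 2 and 1 to 3 for the difference. In BC CML vs CP CML the number lower was 4 without miR-142 KO replicate 3 or BC CML replicate 3, and 1 without CP CML replicate 4, 5 or 6 or BC CML replicate 1, 2 or 6. In CP CML vs WT it was 4 without CP CML replicate 2 or 5. For the difference it was 3 without WT replicate 3 or miR-142 KO replicate 5 and 2 without WT replicate 6 or CP CML replicate 5 or 6, and the number higher was 2 without miR-142 KO replicate 4 or 5 or BC CML replicate 3. Of the 62 calls, 48 were kept in all 24 fits. No paired analysis was possible because the labels give no replicate numbers shared between groups. At this depth Acsl6 rests on at most 33 counts per library, and Ppara was not testable.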
